A study of Drosophila melanogaster with 4 samples.

Results

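The authors listed 8958 peaks for the transcriptional repressor Hairy in Drosophila melanogaster embryos. Of these, 623 (6.95%) lay on chromosome 4, on 4 heterochromatic sequences or at the centromere side of 2L, 3L, 3R and the X. They were defined by position, from the midpoint of each peak on Release 5 of the genome. The limits were set with earlier results of these data known. Arm 2R and the heterochromatic sequence 2RHet were left out of the members and of the arms compared with them. Members lay above 20 Mb on 2L (145 peaks), above 21.5 Mb on 3L (204), at or below 1.5 Mb on 3R (153), above 21 Mb on the X (30), anywhere on chromosome 4 (29), or on the heterochromatic sequences 2LHet (6), 3LHet (31), 3RHet (23) and XHet (2). The series holds 2 libraries of chromatin immunoprecipitated with a rabbit polyclonal antibody to Hairy (KW3-h-D1) and 2 libraries of input DNA. All 4 came from embryos of 1 strain, named Y cn bw sp. Its genotype holds the visible markers y[1], cn[1], bw[1] and sp[1], the taste receptor alleles Gr22b[1] with Gr22d[1], the lysozyme allele LysC[1], the opsin allele Rh6[1], GstD5[1] and MstProx[1], as well as oc[R3.2], lab[R4.2] and CG33964[R4.2]. No treatment is named. Sex is given as unknown, the stage as 0 to 8 h after laying, and the collection protocol names 8 to 16 h, which leaves their age uncertain. The data are a single peak list giving the start, end and score of each peak and no value per library. Read depth is therefore unknown, and replicate errors cannot be given.

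Hairy is a basic helix-loop-helix protein, encoded by a pair-rule gene and related to the Enhancer of split proteins, which represses its targets in the early embryo through corepressors such as Groucho. Heterochromatin is the compact part of the genome around the centromeres. It is rich in satellite DNA and transposons, poor in genes and bound by the protein HP1, and in the fly embryo it forms as cells leave the rapid nuclear divisions. The assembled arms run from gene-rich euchromatin into this sequence at their centromere side, and the Het sequences are pieces of pericentric heterochromatin that Release 5 assigns to an arm without joining them to it. Chromosome 4, the dot chromosome, mixes heterochromatin with active genes. Among its genes are ci, the transcription factor at the end of Hedgehog signalling, pan, the DNA-binding partner of Armadillo in Wingless signalling, and the eye regulators ey and toy. Genes such as lt and cta on 2L are known for lying in or beside heterochromatin. Peaks are named here by their coordinates, without gene assignments, since no Release 5 annotation was used.

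The Hairy peaks were sparse on the Het sequences, on chromosome 4 and at the base of the X, and denser than on the rest of the arm at the base of 3R. On 3L they were sparse in the first 1 Mb and denser further out, so that the region as a whole did not stand apart. The 4 Het sequences together carried 11.0 peaks per Mb (exact 95% Poisson interval 8.42 to 14.1), and chromosome 4 carried 21.5 (14.4 to 30.8). Outside the limits, the arms 2L, 3L, 3R and X together carried 65.1 peaks per Mb (63.4 to 66.8). At their centromere side the X carried 21.1 peaks per Mb (14.2 to 30.1), 2L 48.1 (40.6 to 56.7), 3L 67.0 (58.1 to 76.9) and 3R 102.0 (86.5 to 119.5). These intervals cover counting error only and treat peaks as independent.

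**Figure D1:**
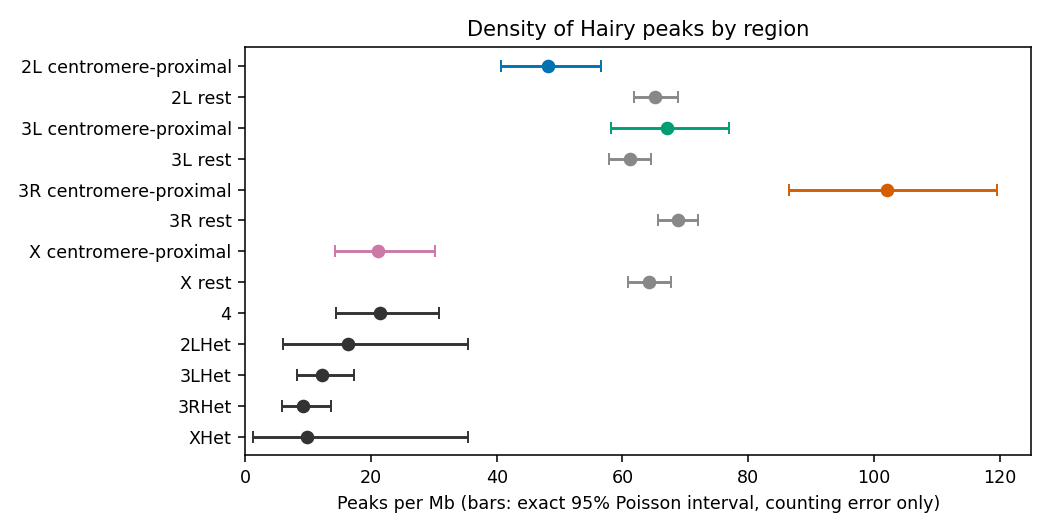
Hairy peaks per Mb (horizontal axis) in each region (vertical axis), for the centromere side of each arm in colour, the rest of the same arm in grey, and chromosome 4 and the Het sequences in black. Points are peaks divided by sequence length, and bars are exact 95% Poisson intervals. The centromere side of 3R (102.0 per Mb) lies to the right of the rest of 3R (68.9), and that of the X (21.1) to the left of the rest of the X (64.2).

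Each region was compared with the rest of the same arm, or with the rest of the 4 arms for chromosome 4 and the Het sequences, by quasi-Poisson regression of the peaks in complete 100 kb windows. This test estimates the spread between windows and so allows for peaks that lie in groups. The Het sequences held 1.09 ± 1.48 peaks per window (SD) against 6.51 ± 5.37 in the windows outside the limits, a ratio of 0.17 (95% interval 0.10 to 0.28, n = 55 against 889 windows, adjusted p = 3.65e-10 over 7 density tests). Chromosome 4 held 2.15 ± 1.82 peaks per window, a ratio of 0.33 (0.15 to 0.72, n = 13, adjusted p = 0.0191, quasi-Poisson). The base of the X held 2.14 ± 3.90 peaks per window against 6.42 ± 6.09 on the rest of the X, a ratio of 0.33 (0.14 to 0.80, n = 14, adjusted p = 0.0344, quasi-Poisson). On 3R the direction was the opposite, with 10.2 ± 5.07 peaks per window against 6.89 ± 5.37, a ratio of 1.48 (1.06 to 2.07, n = 15, adjusted p = 0.0383, quasi-Poisson). On 2L the ratio was 0.74 (0.51 to 1.07, n = 30, adjusted p = 0.15) and on 3L 1.10 (0.82 to 1.45, n = 30, adjusted p = 0.527), and neither passed the threshold of 0.05.

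The 4 arms differed in this ratio. Their centromere-side regions were of unequal depth, 3.01 Mb on 2L, 3.04 Mb on 3L, 1.5 Mb on 3R and 1.42 Mb on the X. Depth was similar on 2L and 3L, at ratios of 0.74 and 1.10, and on 3R and the X, at 1.48 and 0.33. Between these pairs arm and depth cannot be told apart, and the part of depth was not tested. The test of the difference itself, the interaction of arm and side in the quasi-Poisson regression, gave F = 6.13 and p = 0.000395 (n = 89 windows inside and 889 outside the limits). Pooled over the 4 arms, the ratio of centromere side to rest was 0.93 (0.76 to 1.12, n = 89, adjusted p = 0.502), which joins the high density on 3R and the low density on the X. The calls for chromosome 4, the X and 3R lay near the threshold. The X ratio also depended on the limit, at 0.14 with the limit 500 kb nearer the centromere and 0.57 with it 1 Mb nearer the tip. With 200 kb windows, of which the shorter regions hold few, none of these 3 calls was kept, at ratios of 0.36, 0.33 and 1.46. With negative binomial regression the ratio of 3R was 1.48 with an adjusted p of 0.113. Neighbouring windows were also not independent, with a correlation between adjacent windows of 0.42 over 85 pairs inside the limits.

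Windows without a peak were common where the density was low. Outside the limits 8.55% of the 889 windows held no peak. On the Het sequences 27 of 55 windows were empty (49.1%), at the base of the X 5 of 14 (35.7%) and on chromosome 4 3 of 13 (23.1%). On 3L 6 of 30 were empty (20.0%), on 2L 4 of 30 (13.3%) and on 3R 0 of 15. A window without a peak is one in which nothing passed the authors' threshold, and the sources used here do not say how reads from repeated sequence were treated. The share of such reads was not measured, and its part in these densities was not tested.

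Going outwards from the centromere-side end of each arm in steps of 500 kb, the density did not follow 1 profile. On 3L the first step held 5 peaks and the second 3, against 30.6 per step on the rest of that arm. The next steps of 3L held 18, 39, 87 and 50 peaks, so the arm passed from 0.10 times its usual density to 2.84 times it within 2 Mb. On the X the first 3 steps held 2, 8 and 22 peaks, against 32.1 per step on the rest of the arm. The X limit lies within the third of these steps, and 20 of its 22 peaks were members. On 2L the first 6 steps held 8, 25, 37, 32, 22 and 21 peaks, against 32.6 on the rest of the arm. On 3R the first 3 steps held 41, 61 and 51, each above the 34.4 of the rest of 3R.

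**Figure D2:**
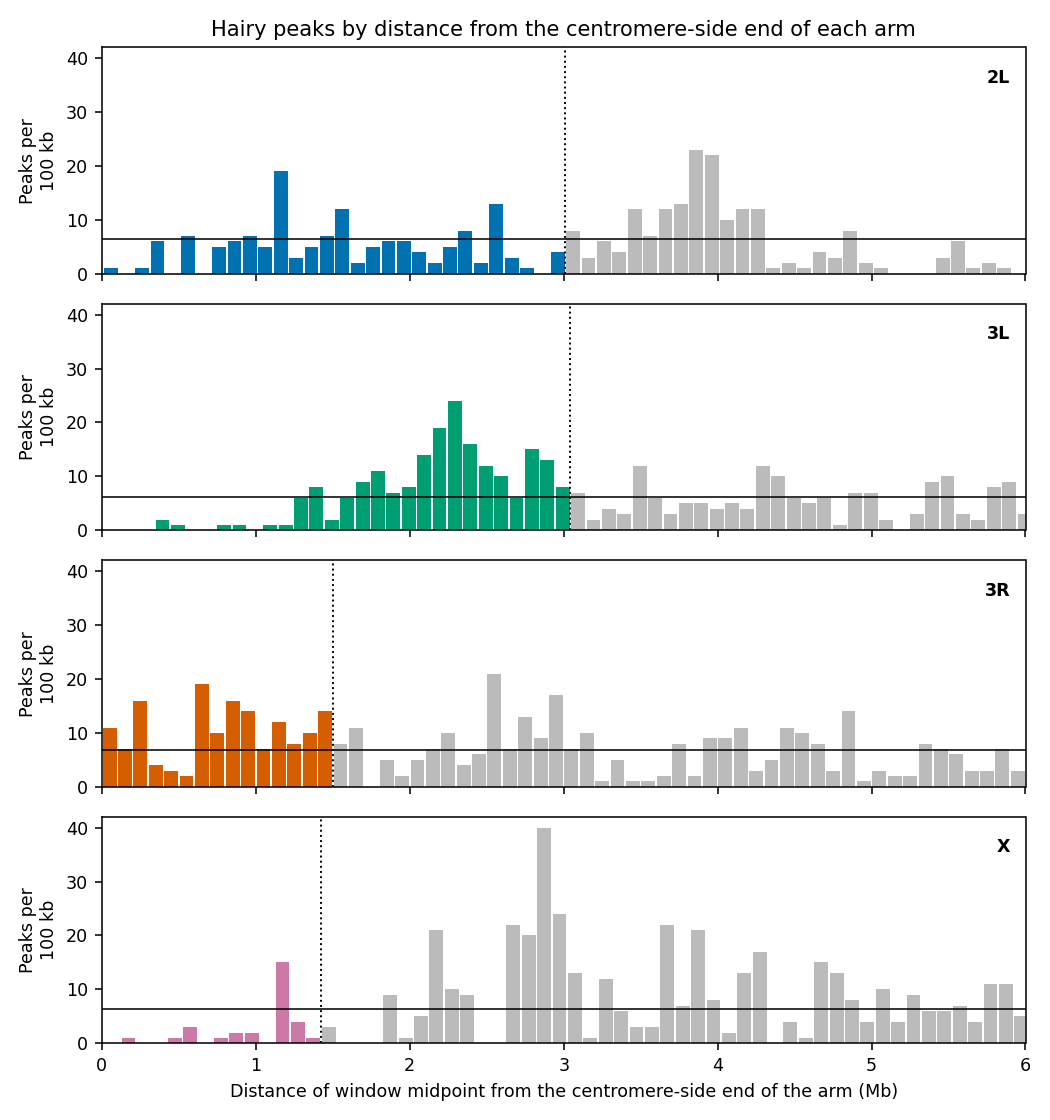
Hairy peaks per complete 100 kb window (vertical axis) against the distance of the window from the centromere-side end of the assembled arm in Mb (horizontal axis), in 1 panel per arm. Coloured bars are windows inside the limits, grey bars lie outside, dotted lines mark the limits, and horizontal lines give the mean of the rest of the arm. On 3L the bars climb from 0 to 2 peaks in the first windows to 24 in the fullest, on 3R the first 15 windows hold a mean of 10.2, and on the X 1 window of 15 peaks stands out.

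Set side by side over the first 1 Mb, 3L held 8 peaks (95% Poisson interval 3.45 to 15.8), the X 10 (4.80 to 18.4), 2L 33 (22.7 to 46.3) and 3R 102 (83.2 to 123.8). These intervals ignore the grouping of peaks, and the difference between arms within this stretch was not tested. Within the limits, the number of peaks per window rose with distance from the end, by a factor of 1.73 per Mb with arm as a covariate (1.35 to 2.23, n = 89, p = 4.15e-05, quasi-Poisson regression). This trend rested on 3L. Without that arm the factor was 1.19 per Mb (0.84 to 1.67, n = 59, p = 0.326).

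The densest step of each arm within 6 Mb of its end lay between 2 and 4 Mb from it. It held 87 peaks at 2 to 2.5 Mb on 3L, 80 at 3.5 to 4 Mb on 2L, 67 at 2.5 to 3 Mb on 3R and 96 at 2.5 to 3 Mb on the X. Of these 4 steps only that of 3L lies inside the limits. The X step holds 2.99 times the density of the X outside the limit, and the 2L step 2.45 times that of 2L outside its limit. Each was picked as the highest of 12 steps, so these values are a description and were not tested.

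The peak nearest to the assembled end differed in strength between the arms. The score is the authors' own value for a peak on an unnamed scale, so scores are compared only among these peaks. In the list the median is 13.2 and the upper quartile begins at 18.5. On 3R a peak of 1629 bp at 3R:360-1988 scored 25.05, and its midpoint lay 1.17 kb from the first base of the arm. The last peak of 3L, at 3L:24530234-24530470, scored 11.40 and lay 13.2 kb from the end. The last of 2L, at 2L:22961255-22961671, scored 20.04 at 50.1 kb, and the last of the X, at X:22230035-22230307, scored 6.55 at 192.7 kb. The last peak of the X was thus the weakest of the 4 and the farthest from its end.

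The base of 3R combined many peaks with many strong ones. Of its 153 peaks, 48 (31.4%, 95% Clopper-Pearson interval 24.1 to 39.4%) scored in the upper quartile of the list. On the rest of 3R the share was 21.8% (20.0 to 23.8%). The 25.3% of the whole list lies within the interval of the base of 3R, whose scores were not tested alone. Its median score was 13.9, against 12.8 on the rest of the arm. Peaks covered 5.21% of the sequence there and 3.47% of the rest. The strongest lay at 3R:1125841-1126812 and scored 59.86, rank 175 of the list. It was followed by 3R:909903-911813 with 58.65 and 3R:678015-680065 with 49.87, which at 2051 bp was also the widest. These 3 peaks lay between 679.0 and 1126 kb from the end of the arm. The fullest window, from 600001 to 700000, held 19 peaks with scores of 8.76 to 49.87, and 10 windows on 3R held more. The longest stretch without a peak, from 328658 to 464319, ran for 135.7 kb and was the sole gap over 100 kb, so 9.04% of the region lay in such gaps, against 22.5% of the rest of 3R. Peaks at the base of 3R were dense but less often within 1 kb of one another. Only 14.4% (9.24 to 21.0%) had another midpoint within 1 kb, against 27.6% (25.6 to 29.7%) on the rest of the arm and 26.6% in the whole list. Within 10 kb the shares were close, 86.3% (79.8 to 91.3%) against 87.0% on the rest of 3R.

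The 3L members had ordinary scores and an uneven layout. Their median score was 12.4, against 12.9 on the rest of 3L, and 41 of 204 (20.1%) were in the upper quartile, against 21.3%. The strongest member of all 623 lay here. It was the peak at 3L:22215204-22217299, 2096 bp wide, with a score of 123.46 and rank 29 of the list. It was followed by 3L:22399828-22400807 with 51.17 and 3L:23707779-23708244 with 40.86. The last of these stood alone, with its nearest neighbour 101.6 kb away. The strongest peak belonged to the fullest 100 kb window inside the limit, 22200001 to 22300000, with 24 peaks that covered 15.3% of it. A window of the rest of 3L, 12600001 to 12700000, held as many. On the 4 arms 3 windows held more peaks. On its centromere side the gaps were long. The longest, from 24169211 to 24528008, ran for 358.8 kb, and gaps over 100 kb took up 40.8% of the region, against 19.8% of the rest of 3L. The longest gap of the whole of 3L thus lay in its last 3.04 Mb.

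The 2L members, whose density did not pass the test, included strong peaks. The median score was 12.7, against 12.9 on the rest of the arm, and 31 of 145 (21.4%) were in the upper quartile. The strongest peak, 2L:20488030-20488714, scored 121.96 (rank 30 of the list) at a width of 685 bp. The next was 2L:20414333-20415993 with 77.23, and the third was 2L:21236961-21237765 with 49.19. The first 2 lay 2523 and 2596 kb from the end of the arm, towards the outer limit. Closer in, the widest peak (1694 bp, 2L:22261130-22262823) scored 21.56 at 749.6 kb. In the first 1 Mb, 13 of 33 peaks (39.4%) were in the upper quartile, against 25.3% of the whole list. In the next 2 steps of 500 kb, 5 of 37 and 2 of 32 were. Over the first 2 Mb of 2L it was 20 of 102 (19.6%), and these shares were not tested. The fullest window, 21800001 to 21900000, held 19 peaks, a number that 8 windows of 2L exceeded. The longest gap, 22736838 to 22961254, ran for 224.4 kb and separated the last peak of 2L from all others.

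The X members were few. Of the 30 peaks 3 (10.0%, 2.11 to 26.5%) were in the upper quartile, against 16.1% on the rest of the X (14.2 to 18.2%), and the intervals overlap. Their median score of 12.2 was close to the 12.0 of the rest of the X. The strongest, X:21436571-21437065, scored 42.44 and had no neighbour within 47.0 kb. The next was X:21195286-21196945 with 26.22, also the widest at 1660 bp, followed by X:21079978-21080298 with 18.47. Of the 30 peaks 15 fell into 1 window, 21200001 to 21300000, with scores from 7.21 to 16.39. A run of 4 peaks separated by at most 500 bp lay within it, from 21225481 to 21227369. The other windows held few peaks, and gaps over 100 kb made up 78.7% of the region, against 33.8% of the rest of the X.

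**Figure D3:**
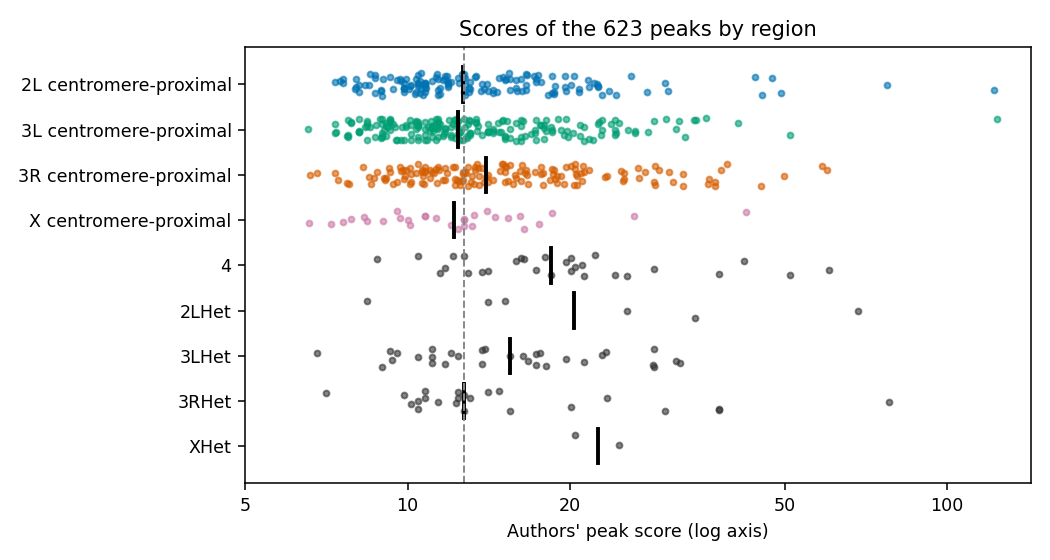
Scores of the 623 members on a log axis (horizontal), by region (vertical); each point is a peak, placed at a random height within its row, black bars are medians, and the dashed line is the median of 12.7 for the rest of 2L, 3L, 3R and X. The medians of the 4 arm regions lie between 12.2 and 13.9, that of chromosome 4 at 18.4, and the 2 peaks of XHet score 20.44 and 24.62.

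The peaks of chromosome 4 were few and scored higher than those of 2L, 3L, 3R and X outside the limits. The stronger ones were narrow for their score. Arm 2R was not part of this comparison. Scores on chromosome 4 ran from 8.77 to 60.45 with a median of 18.4. Of its 29 peaks, 14 (48.3%, 29.4 to 67.5%) were in the upper quartile. The share was 25.3% in the whole list and lower, 20.1%, on the 4 arms outside the limits. In log2 score the chromosome 4 peaks exceeded the peaks of the 4 arms outside the limits by 0.49 (95% interval 0.18 to 0.79, n = 29, adjusted p = 0.00532 over 3 tests, linear model with errors clustered on 100 kb windows). Among peaks at or above the median of the list the difference was 0.22 (n = 22, adjusted p = 0.215, same model). Upper-quartile peaks numbered 10.4 per Mb there, against 13.1 per Mb on the 4 arms outside the limits, while the density of all peaks was 21.5 against 65.1. Restricted to peaks at or above the median score, the density ratio was 0.57 and did not pass the test (n = 13 windows, adjusted p = 0.172, quasi-Poisson).

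The strongest peak of chromosome 4, at 4:445271-445641, scored 60.45 with a width of 371 bp. The next was 4:214316-214983 with 51.17 and a width of 668 bp, and the third was 4:152335-152930 with 41.92 and 596 bp. The widest peak, 4:670937-671744, had 808 bp and a score of 21.08. No peak of chromosome 4 reached 1 kb, a width that 7.29% of the peaks in the list had. Up to 250 kb along the chromosome lay 7 peaks with scores from 14.06 to 51.17, and in the next 250 kb there were 5 with scores from 11.48 to 60.45. From 500 to 750 kb there were 8 peaks of 8.77 to 24.19, and from 750 to 1000 kb 4 of 11.72 to 16.20. The next 250 kb held 4 peaks of 12.70 to 20.04, and a single peak of 12.11 lay beyond. The stronger peaks were therefore on the low-coordinate side. All 5 that scored in the highest 10% of the list lay among the 16 peaks before the midpoint of the chromosome, and none among the 13 after it. The longest gap, from 1081831 to 1347347, ran for 265.5 kb.

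Chromosome 4 peaks also stood apart from one another. None of the 29 had another midpoint within 1 kb (95% Clopper-Pearson interval 0 to 11.9%), against 28.9% (27.7 to 30.0%) on the 4 arms outside the limits. Within 10 kb the share was 51.7% (32.5 to 70.6%), against 86.3% there and 83.2% in the whole list. No pair was separated by 500 bp or less. A lower density makes near neighbours rarer, and the shares were not adjusted for it. Among upper-quartile peaks, those of chromosome 4 were narrower than those of the 4 arms outside the limits. The 14 upper-quartile peaks had a median width of 418.5 bp (259 to 808 bp), against 735.5 bp for the 1166 such peaks on the 4 arms outside the limits, with quartiles of 523.2 and 1081 bp. The 15 below the upper quartile were not narrower, with a median of 351 bp against 328 bp outside the limits. Their median score was 13.71, against 11.55 there. In log2 width, chromosome 4 differed from the arms by -0.05 (95% interval -0.23 to 0.12, n = 29, adjusted p = 0.801), and by -0.46 with log2 score as a covariate (adjusted p = 0.000159, both by the clustered linear model).

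**Figure D4:**
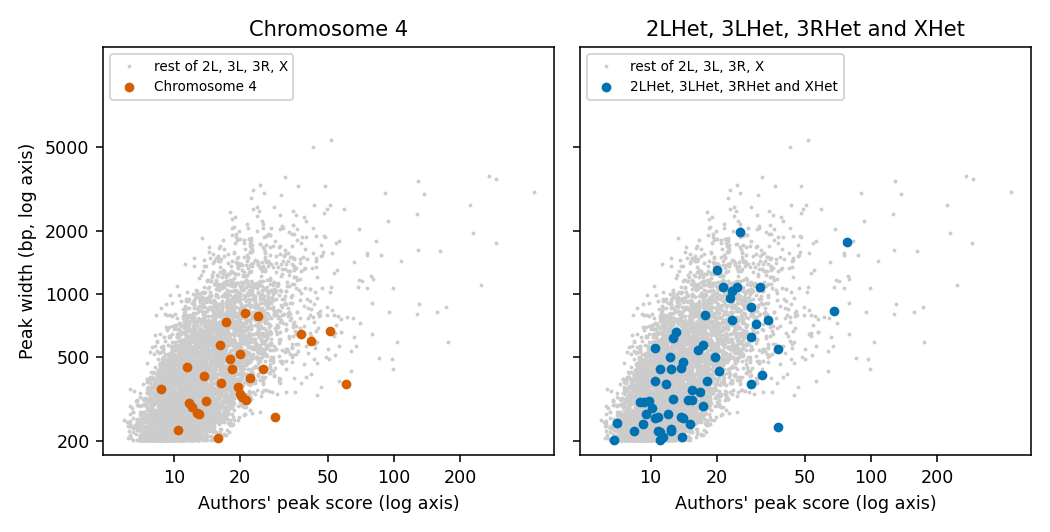
Peak width in bp (vertical, log axis) against the authors' score (horizontal, log axis) for the 29 peaks of chromosome 4 (left) and the 62 of the Het sequences (right), over the peaks of 2L, 3L, 3R and X outside the limits in grey. Points of chromosome 4 stay at or below 808 bp, whereas the Het peaks reach 1973 bp.

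The Het sequences carried few peaks. Over the 62 peaks scores ran from 6.80 to 77.89 with a median of 14.1, and 20 (32.3%, 20.9 to 45.3%) were in the upper quartile, against 25.3% of the whole list, which lies within that interval, and 20.1% on the 4 arms outside the limits. Their log2 scores were higher than on the 4 arms outside the limits by 0.24 (0.04 to 0.44, n = 62, adjusted p = 0.0308, clustered linear model), a call that was lost among peaks at or above the median score (0.20, adjusted p = 0.215, same model). Widths did not pass the test (log2 difference 0.03, -0.18 to 0.24, n = 62, adjusted p = 0.801), but at equal score the difference was -0.17 (adjusted p = 0.0249, same model). The density was 16.3 peaks per Mb on 2LHet (5.97 to 35.4), 12.1 on 3LHet (8.24 to 17.2), 9.80 on XHet (1.19 to 35.4) and 9.14 on 3RHet (5.79 to 13.7), and these intervals overlap. On 2RHet, which is not among the members, it was 5.78 (3.48 to 9.02).

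On 3LHet and 3RHet long empty stretches lay between the peaks. On 3LHet 21 of 31 peaks (67.7%) had another within 10 kb, and on 3RHet 13 of 23 (56.5%). Both shares were below the 83.2% of the whole list and the 86.3% on the 4 arms outside the limits, without adjustment for density. The 83.2% lies within the interval of 3LHet (48.6 to 83.3%). Within 1 kb the shares were 12 of 31 (38.7%) on 3LHet and 6 of 23 (26.1%) on 3RHet. At that distance the whole list had 26.6% and the 4 arms outside the limits 28.9%. A 703.1 kb stretch of 3LHet, from 1487531 to 2190680, held no peak. The strongest peak of 3LHet, 3LHet:2208820-2209230, scored 31.90 and belonged to a group of 4 between 2202218 and 2209230. It was followed by 3LHet:619151-620233 with 31.42 and 3LHet:2190681-2191546 with 28.62, a score that 3LHet:2397458-2397829 shared, and the widest was 3LHet:708639-709722 with 1084 bp. On 3RHet the strongest was 3RHet:1808389-1810159, with a score of 77.89 (rank 79 of the list) and the largest width of that sequence, 1771 bp. A peak 14.8 kb away, 3RHet:1823777-1824324, scored 37.79, and the isolated 3RHet:2308373-2308603 scored 37.75 at a width of 231 bp. The longest gap of 3RHet was 729.2 kb, from 911285 to 1640502. A run of 3 peaks separated by at most 500 bp lay near the start of 3RHet, at 20131 to 21804.

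On 2LHet the strongest of the 6 peaks, 2LHet:368056-368888 with a score of 68.36 (rank 119), was the last one. It lay 179.9 kb from the peak before it, and its end is past the 368.872 kb entered as the length of 2LHet. The others of note were 2LHet:134852-135603 with 34.11 and 2LHet:169028-171000 with 25.49, which was 1973 bp wide and the widest Het peak. None of the 6 had a neighbour within 10 kb. Both peaks of XHet lay at the high-coordinate end of that sequence, at XHet:196175-197259 (24.62) and XHet:203268-203695 (20.44), after 196.2 kb without a peak.

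The centromere side of the arms as a whole differed little in peak strength and width from the rest of the arms. The 532 peaks there had a log2 score higher by 0.02 (-0.04 to 0.08, n = 532, adjusted p = 0.542) and a log2 width lower by a difference of -0.02 (-0.10 to 0.06, adjusted p = 0.801, both by the clustered linear model with arm as a covariate). These intervals leave room for a score up to 0.08 higher on the log2 scale. Of the 532, 40 were 1 kb wide or more (7.52%), against 7.72% outside the limits. Near neighbours within 1 kb were found for 20.9% (17.5 to 24.6%), against 28.9% (27.7 to 30.0%).

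The peaks next to the limits ranged from weak to upper-quartile scores. On 2L the last member scored 8.33 and the first peak outside 11.58, on 3L the scores were 12.87 and 12.25, on 3R 20.41 and 15.37, and on the X 18.47 and 8.40. The first peak outside on 3L had its midpoint 115.5 bp from the limit, and the other 7 lay 10.96 to 80.1 kb away.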

How the data were processed

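Fixation was in 1.8% formaldehyde for 15 min, per the labels' protocols. The tools named in the submitters' processing notes are BWA, MACS2 and 2 versions of CASAVA (1.7.0.2, 1.7.0.3), with build BDGP5; the role of each is not stated there. The authors deposited 1 peak list, on FlyBase release 5 per the file headers, with a score of unnamed scale and 1-based starts and ends. Pooling, control, threshold and treatment of multiply mapping reads are not stated in these sources, and bear most on repeated sequence. Depth is unknown.

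Members follow the position limits in the text. Members, limits and tests were chosen with earlier results of these data known. Sequence lengths of Release 5 were entered from general knowledge. Peaks were counted by midpoint in complete 100 kb windows and compared by quasi-Poisson regression (R 4.3.3, glm; MASS 7.3.60.0.1 for the negative binomial alternative). Log2 scores and widths were compared by linear models with errors clustered on windows (sandwich 3.1.1). P-values are two-sided (F tests for the difference between arms), with Benjamini-Hochberg adjustment over 7 density, 3 score and 3 width tests and a threshold of 0.05, and measure spread between windows or peaks of 1 list, not between embryos. Intervals on shares are Clopper-Pearson. The scripts were tested on simulated data. Peaks named are the 3 strongest and the widest per region, those next to each limit and, added after their values were seen, the one nearest each arm's end. No Release 5 genome was used here, so no sequence is printed. Counts and intervals came from Python 3.11.15 with pandas 2.3.3 and scipy 1.17.1.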

Additional observations from a re-analysis of the deposited data

Results flagged for a closer look

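The ratio of peak density between the centromere side and the rest of the arm differed between 2L, 3L, 3R and the X, which was picked out because the interaction test passed (F = 6.13, p = 0.000395, n = 89 windows inside the limits, quasi-Poisson regression). The ratio was 1.48 on 3R, 1.10 on 3L, 0.74 on 2L and 0.33 on the X. The depth of the regions also differed, from 1.42 Mb on the X to 3.04 Mb on 3L, and no setting of this test made it equal. On 3R and the X, where the ratio was highest and lowest, depth was similar, at 1.5 and 1.42 Mb.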

How the results depend on the processing

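No paired analysis was possible because the list carries no value per library, and no replicate could be left out for the same reason. Unknown depth and mapping limit what a region without peaks means. Settings added after seeing the data were correlated errors over 5 windows, leaving out the fullest window or an arm, and limits 1 Mb further out. The low density of the Het sequences (0.16 to 0.20) and the difference between arms kept their calls under every setting run. The density on 3R lost its call, at ratios of 1.46 (200 kb windows), 1.47 (limits 500 kb nearer the centromere), 1.29 and 1.22 (limits 500 kb and 1 Mb nearer the tip), 1.47 (last peak end as sequence length) and 1.48 (negative binomial). On the X it was lost at 0.33 (200 kb windows), 0.28 (peaks at or above the median score), 0.38 (last peak end) and 0.57 (limits 1 Mb nearer the tip), and it was 0.14 with limits 500 kb nearer the centromere; on chromosome 4 it was lost at 0.36 (200 kb windows) and 0.57 (peaks at or above the median). 2L passed at 0.74 with an exact conditional test of Poisson rates, which ignores grouping, and turned to 1.01 with limits 1 Mb nearer the tip. 3L turned to 0.97 (peaks at or above the median), 0.96 (limits nearer the centromere) and 1.00 (0.998, without its fullest window). The pooled ratio turned to 1.02 without 2L and 1.04 without the X, and the trend with distance lost its call without 3L (1.19 per Mb). The log2 score differences lost their calls among peaks at or above the median for chromosome 4 (0.22) and the Het sequences (0.20), and the uncalled one of the arms turned to -0.0040 with limits nearer the centromere. The width of chromosome 4 peaks passed among peaks at or above the median (-0.40), with peaks within 500 bp merged (-0.31) and with score as a covariate (-0.46), and turned to 0.013 on ranks. For the Het sequences it turned to -0.074 (at or above the median) and -0.17 (score as a covariate). Where no value shows it, the cause of these changes was not tested.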
